A study of Homo sapiens with 12 samples.

Results

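Fenretinide added to GSK-126 was examined in T24, an established line of human bladder cancer cells, by comparing 2 of the 12 samples of the series. One was the H3K27me3 ChIP-seq library of cells given 5 µM GSK-126 together with 5 µM fenretinide for 72 h (the combination), and the other that of cells given 5 µM GSK-126 alone for 72 h. Both were chosen by their treatment labels. Libraries of cells given DMSO (vehicle) and of cells given 5 µM fenretinide alone for 72 h served as the same addition made without GSK-126. Chromatin was fixed with 1% formaldehyde for 10 min in all 4, and every condition had 1 library. No difference below has a replicate check and no p-value is given. The 4 input and 4 RNA-seq libraries were not analysed here, so the labelled cell type was not checked against expression.

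H3K27me3 is the trimethyl mark on lysine 27 of histone H3. EZH2, the catalytic subunit of Polycomb repressive complex 2, places it, and in most cell types it covers silent developmental genes such as the HOX clusters and genes of other lineages. GSK-126 is a small-molecule inhibitor of EZH2 that competes with the methyl donor. Fenretinide is a synthetic retinoid, a derivative of retinoic acid that is known both for retinoic acid receptor dependent effects and for receptor-independent effects through ceramide and oxidative stress. Retinoic acid receptors bind response elements near target genes such as RARB and CYP26A1, and Polycomb marking is known to oppose the induction of such genes.

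The combination library held 15812933 fragments in 273664 consensus intervals and the GSK-126 library 16156194. The vehicle library held 17133107 and the fenretinide library 18928836. A ratio below divides a place's share of all interval fragments in the combination by its share in GSK-126, and brackets hold its 95% exact Clopper-Pearson counting interval, which covers counting error only. Levels are fragments per kb of interval, scaled to a library of 1000000 interval fragments. The labels name no spike-in, and a higher or lower ratio is therefore one in the distribution of the mark and need not be one in its amount.

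The deposited peak list of the combination was longer than that of GSK-126, and its peaks had lower scores. The authors' list for the combination held 274393 peaks over 829 Mb and that for GSK-126 217751 peaks over 700 Mb. The median deposited score was 15 in the combination and 17 with GSK-126. The excess lay at the lowest scores, where 41664 combination peaks and 7514 GSK-126 peaks had a score of 10 or 11. At scores of 20 or more the order was the opposite, with 70729 combination peaks and 79752 GSK-126 peaks. Scores carry no stated scale and come from separate calls, and no source used here says which background the caller had.

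**Figure D1:**
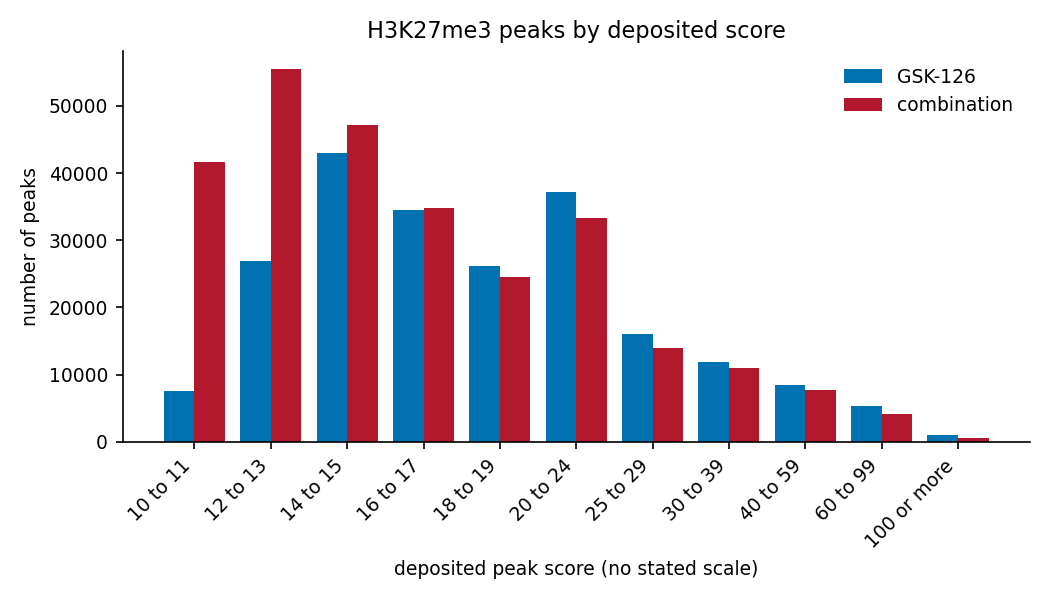
Number of deposited H3K27me3 peaks (y axis) by deposited score (x axis, no stated scale) in the GSK-126 and combination libraries. Combination bars are the taller ones up to a score of 17 and the shorter ones from 18 upwards.

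Of the GSK-126 peaks, 81.5% overlapped a combination peak by at least 1 bp, and of the combination peaks 63.8% overlapped a GSK-126 peak. The 99297 combination peaks without a GSK-126 peak had a median length of 786 bp and a median score of 13, and 47.3% of them overlapped a vehicle peak. The 40223 GSK-126 peaks without a combination peak had a median length of 676 bp and a median score of 14, and 38.8% of them overlapped a vehicle peak. Among peaks with a score of 20 or more, the share without a partner was smaller in both lists, at 6986 combination peaks and 3906 GSK-126 peaks. Promoter peaks took 0.928% of the peak length in the combination and 0.988% with GSK-126.

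Fragment counts over the intervals moved little between the libraries. Of 152518 intervals with at least 20 fragments in both libraries together, 3785 (2.48%) were called higher in the combination, at a ratio of at least 2 with a counting interval above 1. Another 2770 (1.82%) were called lower, at a ratio of at most 0.5 with a counting interval below 1. This balance depended on the scaling. With DESeq2 size factors 2211 were higher and 4050 lower, and with edgeR's TMM factors 2357 and 3928. Calls lay in short and shallow intervals. Among the 4783 intervals with at least 1000 fragments, 0 were called higher and 3 lower, and the central 90% of log2 ratios ran from -0.35 to 0.30. None of the 2410 intervals of 50 kb or more was called in either direction. With any size of ratio, 11036 intervals (7.24%) had a counting interval above 1 and 9866 (6.47%) below 1.

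Intervals in which only 1 of the lists had a peak account for most calls. There were 3363 higher calls among 26440 intervals with a peak in the combination list only, and 1885 lower calls among 9689 with a peak in the GSK-126 list only. Such intervals were called from the same fragments that are compared, so their direction is fixed by how they arose. Among 109551 intervals with a peak in both lists, 299 were called higher and 830 lower.

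The density of the mark in vehicle cells, which enters neither side of the ratio, ordered the differences. Intervals with a vehicle peak were split into 10 equal groups by vehicle fragments per kb. In the lowest group the median log2 ratio was -0.11 and the summed ratio 0.882 (0.880 to 0.884). In the highest group they were 0.14 and 1.07 (1.066 to 1.069), and the summed ratio went up at every step between. Levels in the lowest group were 0.271 (vehicle), 0.939 (GSK-126), 0.352 (fenretinide) and 0.828 (combination). Levels in the highest group were 1.65, 1.02, 1.495 and 1.09 in the same order. In the lowest group 14.2% of intervals had a counting interval below 1 and 2.40% above 1, and in the highest group 3.70% and 22.99%. In both groups the combination library sat between GSK-126 and vehicle by share of interval fragments, and much nearer to GSK-126. In the highest group this place depended on the scaling. DESeq2 factors move every log2 ratio by -0.13 and TMM factors by -0.11, which takes its summed ratio of 1.07 below 1. Scaling to sparse intervals, with a shift of -0.05, does not. A shift of all ratios leaves the order of the groups as it is.

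**Figure D2:**
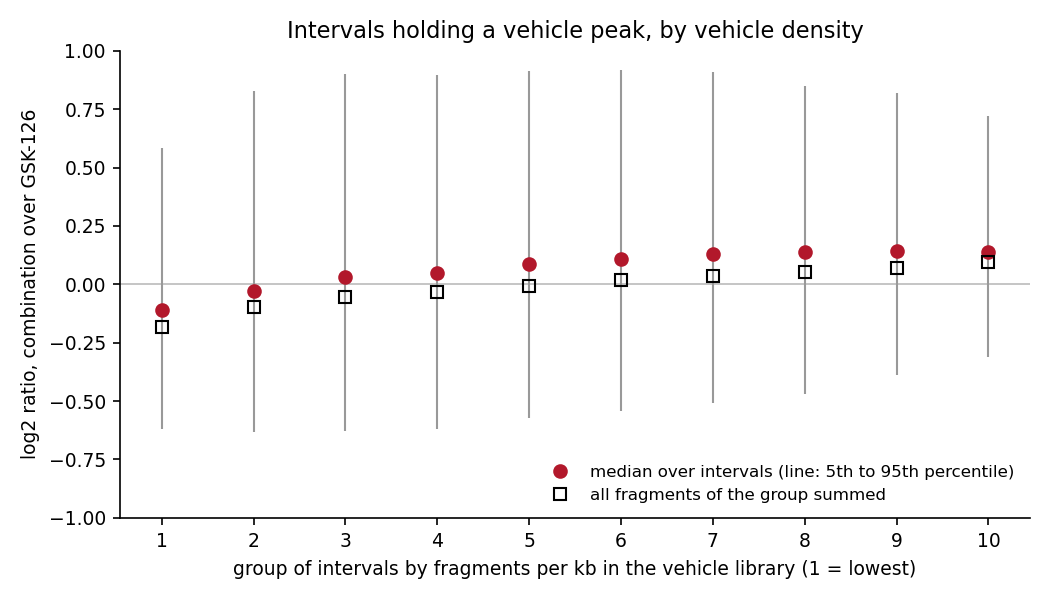
Log2 ratio of the combination over GSK-126 (y axis) in 10 equal groups of intervals with a vehicle peak, ordered by fragments per kb in the vehicle library (x axis). Filled points are medians over intervals, lines run from the 5th to the 95th percentile, and open squares are the ratio of all fragments of the group. Medians go from -0.11 in group 1 to 0.14 in group 10, well inside the spread of single intervals.

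By chromosome, summed ratios ran from 0.925 (0.921 to 0.929) on chromosome 19 and 0.931 (0.926 to 0.937) on chromosome 21 to 1.03 on chromosomes 10 and 17. Chromosome 19 carries the largest clusters of zinc-finger genes, described below.

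Near genes, 61 of 13777 (0.443%) were called higher in the combination and 69 (0.501%) lower. A gene's value summed the intervals of peaks whose nearest transcription start site was that gene within 10 kb, with at least 50 fragments in both libraries together. Over these genes the median log2 ratio was 0.08, and the central 90% lay between -0.47 and 0.58. The split between higher and lower calls depended on the scaling, and with DESeq2 size factors 19 genes were higher and 106 lower. Those factors moved every log2 ratio by -0.13, edgeR's TMM factors by -0.11 and scaling to sparse intervals by -0.05, so the lists below are read against the median of all genes. Higher calls also depended on the intervals used, with 9 among genes measured only in intervals that hold a GSK-126 peak and 48 in intervals that hold a vehicle peak. Requiring a GSK-126 peak selects on the denominator of the ratio, which by itself removes rises, and lower calls were 76 there. In vehicle-peak intervals, lower calls went from 69 to 16.

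A wider rule counts a gene wherever its counting interval excludes 1, whatever the size of its ratio. This rule was added after the data were seen. It gave 2840 genes above 1 (20.6%) and 1497 below 1 (10.9%), and with DESeq2 size factors 1127 above and 2843 below. Counts for gene lists below use it, and their backgrounds are these 20.6% and 10.9%.

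Retinoid pathway genes as a list did not stand away from the median gene. Of 22 measured, 4 had a counting interval above 1 and none below, and the median log2 ratio was 0.09, which DESeq2 and TMM factors take below 0. CRABP1, a retinoic acid binding protein, held 363 fragments in vehicle, 92 in GSK-126, 316 in fenretinide and 132 in the combination, a ratio of 1.47 (1.11 to 1.93). ALDH1A1, an enzyme that makes retinoic acid, held 583, 251, 682 and 320 in the same order, a ratio of 1.30 (1.10 to 1.54). For both genes the combination lay above GSK-126 and below the libraries without GSK-126. They were named as the highest ratios of the list, which by itself favours a low GSK-126 count.

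CYP26A1 and CYP26C1, which break retinoic acid down, had the lowest ratios of the list. CYP26A1 held 132, 70, 72 and 54 fragments with vehicle, GSK-126, fenretinide and the combination, a ratio of 0.788 (0.542 to 1.14). CYP26C1 held 27, 45, 15 and 29, a ratio of 0.658 (0.398 to 1.07). Both counting intervals include 1. The receptor genes RARB and RARG held 50 and 69 fragments with GSK-126 and 62 and 79 in the combination, ratios of 1.27 (0.859 to 1.88) and 1.17 (0.836 to 1.64). STRA6, the cellular importer of retinol, held 23 with GSK-126 and 19 in the combination, a ratio of 0.844 (0.435 to 1.62), under the minimum of 50 and so outside the list's count. At this depth, no change near these 5 genes was detectable.

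RARB and CYP26A1 are shown by sequence because each carries, just before its start site, a retinoic acid response element of the direct-repeat type with a 5-base spacer. Sequences are from RefSeq (GRCh38.p14), 250 bases before the start site, 5′ to 3′ on the gene's plus strand, with the matched element in capitals. The search took pairs of half-sites in the same orientation with 5 bases between, on both strands. A half-site was AGGTCA, the textbook form, or else AGTTCA, which both matched elements contain, or else GGGTCA, or the related form GGTTCA, which opens the RARB element.
RARB: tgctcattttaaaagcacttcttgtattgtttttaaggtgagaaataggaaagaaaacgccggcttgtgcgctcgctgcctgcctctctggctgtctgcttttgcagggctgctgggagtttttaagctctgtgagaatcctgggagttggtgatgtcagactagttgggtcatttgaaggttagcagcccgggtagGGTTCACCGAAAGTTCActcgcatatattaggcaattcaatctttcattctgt
CYP26A1: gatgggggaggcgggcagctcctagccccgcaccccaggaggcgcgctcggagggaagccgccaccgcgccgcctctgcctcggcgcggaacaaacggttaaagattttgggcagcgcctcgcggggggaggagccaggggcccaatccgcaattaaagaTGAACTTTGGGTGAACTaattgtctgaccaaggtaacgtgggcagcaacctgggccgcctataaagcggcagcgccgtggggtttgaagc
The RARB stretch lies at chr3:25428013-25428262 with the element on the plus strand, and the CYP26A1 stretch at chr10:93073643-93073892 with the element on the minus strand. Of 35116 promoter windows of 300 bases (250 before and 50 after the start), 31 held such an element (0.0883%).

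The mark over these elements was measured in the interval that covers each. The RARB interval, chr3:25426302-25430459, held 48 fragments in vehicle, 15 in GSK-126, 28 in fenretinide and 22 in the combination, a ratio of 1.499 (0.743 to 3.11). The CYP26A1 interval, chr10:93071484-93076905, held 96, 41, 48 and 36, a ratio of 0.897 (0.557 to 1.44). In both, fenretinide alone and GSK-126 alone held fewer fragments than vehicle, and the combination did not differ from GSK-126 beyond counting error. Of the 31 windows, 8 lay in an interval, with a median log2 ratio of -0.09, beside 0.07 over the 9911 windows measured in all.

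The largest rises were modest in size and came from genes marked in vehicle cells. Genes could enter through a peak of another list with few GSK-126 fragments, which by itself favours rises. The vehicle level of these genes is therefore not a separate result. The 9 genes past a ratio of 2 with at least 100 fragments were TEX2, MUC13, PWP1, TSPAN33, SRP19, LOC100130698, LOC100130992, LOC101927022 and TRNAA28, with ratios between 2.09 and 2.16. With DESeq2 factors all 9 fall under 2, at 1.91 to 1.98, and with TMM factors all but MUC13 do. TEX2 (chr17:64265137-64273871) held 147 fragments in vehicle, 66 in GSK-126, 167 in fenretinide and 135 in the combination, a ratio of 2.09 (1.55 to 2.85). MUC13, a transmembrane mucin of epithelia, held 80, 34, 76 and 72, a ratio of 2.16 (1.42 to 3.36). For TEX2 and MUC13 the GSK-126 library was the low one, and the combination matched the libraries without GSK-126 closely in fragments.

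PWP1, a ribosome biogenesis factor, held 326, 45, 261 and 92 fragments in the same order, a ratio of 2.09 (1.45 to 3.05). TSPAN33, a tetraspanin, held 190, 33, 139 and 69, a ratio of 2.14 (1.39 to 3.34). SRP19, a protein of the signal recognition particle, held 91, 35, 79 and 72, a ratio of 2.102 (1.38 to 3.24). Near PWP1 and TSPAN33 the combination stayed far below vehicle, and near SRP19 it came close to it. The next 3 genes by the same rank passed 1.5 but not 2. COL2A1, the collagen of cartilage, held 717, 158, 497 and 264 fragments, a ratio of 1.71 (1.40 to 2.09). FAM46C, a poly(A) polymerase, had a ratio of 1.79 (1.39 to 2.32) and the noncoding LOC285000 one of 1.63 (1.41 to 1.88).

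Most genes with the 12 largest falls had little of the mark in vehicle cells. A peak in any list was enough for an interval to count, so such genes could enter through a GSK-126 peak without a vehicle peak. That selects on the denominator of the ratio, which by itself favours falls. With intervals that hold a vehicle peak, lower calls were 16, beside 69 in the main setting. The low vehicle level of these genes is therefore not a separate result. CELSR3, a cadherin of planar cell polarity, held 11 fragments in vehicle, 232 in GSK-126, 14 in fenretinide and 112 in the combination, a ratio of 0.493 (0.390 to 0.621). TUG1, a long noncoding RNA gene, held 12, 102, 14 and 37, a ratio of 0.371 (0.247 to 0.545). Near both genes the libraries without GSK-126 were low, GSK-126 alone was the highest, and the combination lay between.

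CELSR1, a relative of CELSR3, held 61, 82, 52 and 31 fragments, a ratio of 0.386 (0.247 to 0.590), so the combination was the lowest of the 4 libraries there. GLS2, a mitochondrial glutaminase, held 67, 152, 67 and 66, a ratio of 0.444 (0.327 to 0.596). SIM1, a transcription factor of the hypothalamus, held 46, 130, 41 and 57, a ratio of 0.448 (0.322 to 0.616). Near GLS2 the combination and the libraries without GSK-126 were level in fragments. The other 7 were 3 genes for 5S ribosomal RNA, 2 transfer RNA genes (TRNAG30 and TRNAE22), LOC100996428 and LOC101927903, with ratios between 0.308 and 0.472.

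**Figure D3:**
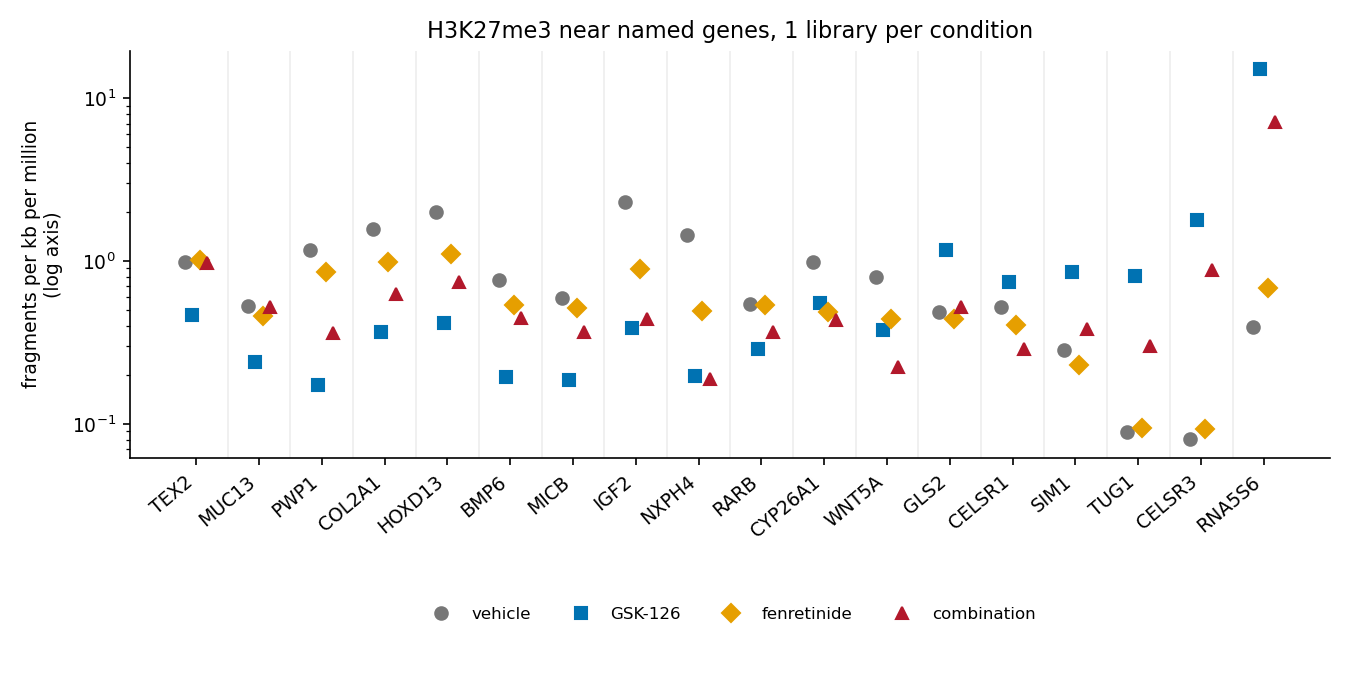
Level of H3K27me3 in scaled fragments per kb (y axis, log scale) near 18 named genes (x axis) in the 4 libraries, 1 point per library. On the left the GSK-126 point is the lowest of each gene up to IGF2 and the combination lies above it. On the right, from GLS2 on, GSK-126 is the highest point and the combination is below it.

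HOX genes, textbook Polycomb targets, had a higher median than all genes. Of 7 measured members in 6 sets of shared intervals, 3 had a counting interval above 1 and none below. The median log2 ratio was 0.29, with single members from -0.25 to 0.83. HOXD13, the last gene of its cluster, held 225 fragments in vehicle, 44 in GSK-126, 136 in fenretinide and 77 in the combination, a ratio of 1.79 (1.22 to 2.65). HOXC12 and HOXC13 share an interval and so are 1 measurement, which held 888, 269, 668 and 322, a ratio of 1.22 (1.04 to 1.44). HOXB13 and HOXD10 had the lowest ratios, 0.839 (0.624 to 1.12) and 0.841 (0.491 to 1.43), both with 1 inside the interval. Summed over the list, the level was 1.09 in vehicle, 0.338 in GSK-126, 0.711 in fenretinide and 0.399 in the combination. Only 12 of 39 HOX genes had any interval within 10 kb.

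Secreted ligands of the WNT, BMP and growth factor families were 55 genes, of which 19 lay above 1 (34.5%) and 1 below. Their median log2 ratio was 0.19. It exceeded the median of all genes by 0.10, but by 0.0049 within 2 kb and 0.03 with no distance limit. BMP6, a bone morphogenetic protein, held 67, 16, 52 and 36 fragments in the order of vehicle, GSK-126, fenretinide and combination, and was called higher at 2.30 (1.24 to 4.44). FGF8, a growth factor of limb and brain, held 80, 23, 50 and 39, a ratio of 1.73 (1.01 to 3.04). WNT5A, a ligand of non-canonical WNT signalling, went the other way. It held 251, 113, 154 and 65 fragments, so the combination was the lowest of the 4, with a ratio of 0.588 (0.426 to 0.804). WNT7B held 58 with GSK-126 and 37 in the combination, a ratio of 0.652 (0.419 to 1.00).

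Genes for Polycomb subunits themselves gave 13 measured members, 2 of them above 1 and none below, with a median of 0.19. C17orf96, a cofactor of Polycomb repressive complex 2, held 129, 21, 98 and 47 fragments and was called higher at 2.29 (1.34 to 4.03). RYBP, a subunit of Polycomb repressive complex 1, held 339, 89, 326 and 146, a ratio of 1.68 (1.28 to 2.21). SCMH1 had the lowest ratio, 0.876 (0.706 to 1.09). No interval lay within 10 kb of EZH2, nor of CDKN1A, a cell cycle inhibitor.

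Zinc-finger genes, many of them KRAB-type repressors in clusters on chromosome 19, lost share when fenretinide was added. Of 351 measured genes in 269 sets of shared intervals, 197 (56.1%) had a counting interval below 1 and 18 (5.13%) above. The median log2 ratio was -0.27. The 203 on chromosome 19 had a median of -0.32, with 142 below 1 and 5 above, the 148 elsewhere a median of -0.14, and the 724 other genes of chromosome 19 a median of 0.09. The level over the list was 0.486 in vehicle, 1.64 in GSK-126, 0.518 in fenretinide and 1.34 in the combination. These levels put the combination below GSK-126 and more than 2-fold above the libraries without it. Genes of the list are not independent, since neighbours share intervals and sequence. They could also enter through a GSK-126 peak without a vehicle peak, which by itself favours falls and a high GSK-126 level. In intervals that hold a vehicle peak, 240 genes of the list were measured. Their median log2 ratio was -0.21, beside 0.10 for all genes in that setting.

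Single zinc-finger genes show the size of this difference. By rank, the lowest ratios were those of ZNF223 and ZNF763, both called lower. ZNF223 held 1 fragment in vehicle, 56 in GSK-126, 4 in fenretinide and 23 in the combination, a ratio of 0.420 (0.246 to 0.693). ZNF763 held 12, 50, 13 and 22, a ratio of 0.450 (0.259 to 0.756). More deeply covered genes, picked after their values were seen, had milder ratios. ZNF124 (chr1:247130082-247168558) held 17, 754, 34 and 481, a ratio of 0.652 (0.580 to 0.732). ZNF566 (chr19:36491767-36526592) held 65, 1249, 125 and 831, a ratio of 0.680 (0.622 to 0.743), and ZNF44 held 87, 1629, 139 and 1098, a ratio of 0.689 (0.637 to 0.744). All 5 were highest with GSK-126 alone and second highest in the combination. The highest of the list were ZNF541 at 1.84 (1.04 to 3.35) and ZNF618 at 1.69 (1.11 to 2.60), and both held more fragments with vehicle than with GSK-126. Picking genes by this ratio by itself favours a high or low GSK-126 count, so the order of libraries near them is not a separate result.

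Clustered protocadherins, adhesion proteins whose genes lie in tandem on chromosome 5, had the lowest median of the 20 lists, -0.40. Of 51 measured genes, 42 lay below 1 and none above, but the 51 share only 8 sets of intervals, so they are not separate measurements. The gamma cluster was lowest, with a median of -0.53 over 17 genes, followed by the beta cluster at -0.40 over 19 and the alpha cluster at -0.19 over 15. PCDHGA1 held 670 fragments in vehicle, 2210 in GSK-126, 755 in fenretinide and 1516 in the combination, a ratio of 0.701 (0.656 to 0.749). PCDHB10 and PCDHB11 share an interval with 135, 368, 172 and 231, a ratio of 0.641 (0.542 to 0.758). Where the alpha cluster gives way to the beta cluster, PCDHB1 at 1.12 (0.971 to 1.29) and PCDHAC2 at 1.09 (0.983 to 1.20) had ratios above 1, and these 2 also held more fragments with vehicle than with GSK-126. They were named as the highest ratios of the list, which by itself favours a low GSK-126 count.

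Antigen presentation, NKG2D ligand and interferon genes had a median of 0.23 over 45 genes, 15 of them above 1 (33.3%) and 1 below. MICB, a stress ligand seen by natural killer cells, held 81, 24, 78 and 46 fragments with vehicle, GSK-126, fenretinide and the combination, a ratio of 1.958 (1.17 to 3.35). IFNL3, an interferon of epithelia, held 127, 17, 86 and 33, a ratio of 1.98 (1.07 to 3.80). IFI6, an interferon-induced gene, held 135, 266, 111 and 165, a ratio of 0.634 (0.519 to 0.773). DDX58, a sensor of viral RNA, held 1, 42, 2 and 28, a ratio of 0.681 (0.407 to 1.13). Near IFI6 and DDX58 GSK-126 alone was the highest library, and near MICB and IFNL3 the lowest. These genes were named as the lowest and highest ratios of the list, which by itself favours such an order.

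Epithelial marker lists stayed near the median of all genes or a little above it. The mesenchymal and neuronal channel lists, described further on, lay below it, at -0.08 and -0.01. Basal and squamous markers had a median of 0.16 over 32 genes in 26 sets of shared intervals, 10 above 1 and none below. DSC2, a desmosomal cadherin, was at 1.53 (1.16 to 2.03). For urothelial and luminal markers the median was 0.09 over 18, with 6 above and 1 below. VGLL1, a transcriptional cofactor, was highest among them, at 1.59 (1.26 to 2.004), and ERBB3, a receptor tyrosine kinase of luminal cells, lowest at 0.575 (0.345 to 0.940). GATA3, the luminal transcription factor, held 66 fragments with GSK-126 and 69 in the combination, a ratio of 1.07 (0.751 to 1.52). Keratins and keratin-associated proteins had 0.11 over 88, with 24 above and 1 below. These 88 share only 45 sets of intervals, so they are not separate measurements.

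Blood lineage genes had a median of 0.10 over 58, 19 above 1 (32.8%) and 2 below (3.45%). LYZ, the lysozyme gene of myeloid cells, had 1.57 (1.04 to 2.39), and KLF1, an erythroid transcription factor, 0.556 (0.423 to 0.726). Olfactory receptor genes had 0.07 over 372 in 261 sets of shared intervals, with 80 above and 37 below. Medians of the blood, olfactory, keratin and urothelial lists fall below 0 with DESeq2 and TMM factors.

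Another 4 lists had medians at or just below 0, a side of 0 that changed with the choice of intervals. With no distance limit the neural transcription factor, mesenchymal and imprinted lists were at 0.05, 0.07 and 0.04, and within 2 kb the neuronal channel list was at 0.0039. Against the median of all genes, each of the 4 was below it in all 6 alternatives. The other scalings among these move every gene alike and cannot change this, so only the choices of intervals could. For the mesenchymal list with no distance limit the difference was only -0.0006. Neural and developmental transcription factors had a median of -0.02 over 109 genes, with 18 above 1 and 25 below. SIM2, a relative of SIM1, held 5, 63, 5 and 26 fragments and was called lower at 0.422 (0.256 to 0.676), and MSX1 of limb and tooth development had 1.52 (1.04 to 2.25). Neuronal channel and synapse genes had -0.01 over 64, with 11 above and 9 below. Among them SYN1, a synaptic vesicle protein, had 1.90 (1.11 to 3.36) and NRG3, a neuregulin, 0.765 (0.690 to 0.847). Mesenchymal and fibroblast markers had -0.08 over 17, where POSTN, a matrix protein, held 16 fragments with GSK-126 and 34 in the combination and was called higher at 2.17 (1.17 to 4.21), or 1.99 and not called with DESeq2 factors.

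Imprinted genes, the last of these lists, had a median of -0.01 over 34 genes in 28 sets of shared intervals. Of these genes, 3 lay above 1 and 10 below (29.4%). PHLDA2, a growth regulator of placenta, held 10, 43, 15 and 21 fragments and was called lower at 0.499 (0.281 to 0.859). MEST held 17, 83, 16 and 48, a ratio of 0.591 (0.405 to 0.853). In both, GSK-126 alone was highest, an order that naming the lowest ratios of the list by itself favours. IGF2, the imprinted growth factor, held 766 fragments in vehicle, 123 in GSK-126, 328 in fenretinide and 136 in the combination, a ratio of 1.13 (0.879 to 1.45), in an interval shared with its antisense gene.

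Genes of growth arrest, death and stress had medians close to that of all genes. Cell cycle inhibitors and tumour suppressors had 0.08 over 13, with 6 above 1 and none below, led by the WNT antagonists WIF1 at 1.42 (1.06 to 1.92) and SFRP5 at 1.41 (1.12 to 1.78). Apoptosis genes had 0.07 over 11, with 1 above and 1 below. CASP10, an initiator caspase, held 54 fragments with GSK-126 and 29 in the combination, a ratio of 0.549 (0.337 to 0.877), and BIK, a BH3-only death gene under the minimum of 50 fragments and so outside the count, held 25 and 16, a ratio of 0.654 (0.326 to 1.27). Unfolded protein, oxidative and ceramide stress genes had 0.10 over 23, with 5 above and 1 below. SPTLC2, a subunit of the enzyme that starts ceramide synthesis, held 119, 61, 113 and 102 fragments, a ratio of 1.71 (1.23 to 2.39). The medians of these 3 lists fall below 0 with DESeq2 and TMM factors. ATF3, KLF4 and NXPH4 had ratios of 1.06 (0.583 to 1.95), 1.70 (0.561 to 5.70) and 0.951 (0.542 to 1.66), with 6 to 29 fragments in each of the 2 libraries. ATF3 and KLF4 were under the minimum of 50. Of the 3 housekeeping genes measured, B2M was at 1.31 (1.13 to 1.52).

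Repeated loci held some of the steepest falls among well-covered places. They were looked at after their values were seen, and no source used here says how reads in repeated sequence were placed, so the copy a fragment came from is uncertain. The 5S ribosomal RNA genes on chromosome 1 held 31 fragments in vehicle, 1161 in GSK-126, 50 in fenretinide and 562 in the combination, a ratio of 0.495 (0.446 to 0.547). The 45S ribosomal RNA genes on chromosome 21, with 30 kb on either side, held 859, 1735, 1185 and 919, a ratio of 0.541 (0.499 to 0.587). Over the 5S genes the level was 4.41 in the combination and 0.224 in vehicle. The vehicle fragments of the 45S window lay mostly in its outer part. With 5 kb on either side the counts were 28, 366, 183 and 146, a ratio of 0.408 (0.334 to 0.495), and the combination was above vehicle there too, at levels of 2.13 and 0.378.

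SNORD115 and SNORD116 are tandem small nucleolar RNA genes of the imprinted region of chromosome 15. One interval over SNORD115 (chr15:25157890-25269574) held 466, 4121, 755 and 2334 fragments, a ratio of 0.579 (0.550 to 0.609). One over SNORD116 (chr15:25015485-25122139) held 142, 2338, 299 and 1623, a ratio of 0.709 (0.665 to 0.756). Contigs outside the assembled chromosomes together held 58600, 245488, 85635 and 188393, a ratio of 0.784 (0.779 to 0.789). Of their 596 intervals tested 25 (4.19%) were called lower and 4 (0.671%) higher, beside 1.82% and 2.48% of all intervals. Transfer RNA genes as a set had a ratio of 1.05 (1.03 to 1.07). Apart from the transfer RNA genes, these loci were highest with GSK-126 alone, and the combination lay below it.

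**Figure D4:**
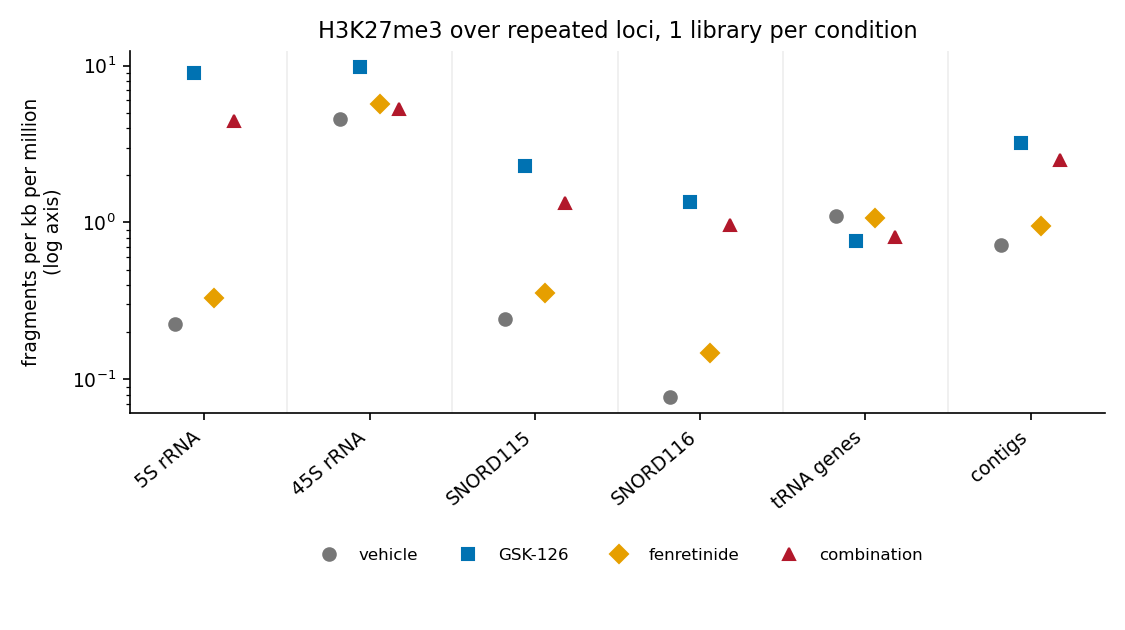
Level of H3K27me3 in scaled fragments per kb (y axis, log scale) over 6 sets of repeated loci (x axis) in the 4 libraries, 1 point per library. GSK-126 is the highest point in all but the transfer RNA genes, and the combination point is lower than it in those 5.

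The addition of fenretinide was then set beside the same addition without GSK-126. The pairs share no library. Without GSK-126, 43 of 13040 genes with at least 50 fragments in each pair (0.33%) were called higher and 94 (0.721%) lower. By the wider rule 9.59% lay above 1 and 36.9% below, and the median log2 ratio was -0.14, beside 0.09 for the same genes with GSK-126. Across these genes the log2 ratios of the pairs had Pearson's r of -0.18 and Spearman's rho of -0.20. Across 25322 intervals with at least 200 fragments in each pair they were -0.34 and -0.38. By sign alone, 7139 of these intervals were above 1 with GSK-126 and below 1 without it and 8784 the other way, with medians of 0.02 with and 0.07 without. The same counts over genes were 6319 and 2158, so genes and intervals leaned to different sides. These are descriptions across genes and intervals, which are not independent and share base composition and interval length.

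Dividing the ratio with GSK-126 by the ratio without gave 533 genes (4.09%) higher and 184 (1.41%) lower by the 2-fold rule. With scaling to sparse intervals these were 780 and 133. Of the 13040 genes, 61 were called higher and 18 lower with GSK-126, beside 61 and 69 of all 13777. The fragment minimum in the fenretinide and vehicle pair thus took out most lower calls, which by itself favours an excess of higher ones. Of the 13040 genes, 1557 lay above 1 with GSK-126 and below 1 without it, and 411 the other way. Fewer moved alike, with 257 below 1 in both and 79 above 1 in both. In all, 2824 of these genes lay above 1 with GSK-126 and 4812 below 1 without it, which by itself favours the first pattern. The 4 counts hold for shares of interval fragments and were not repeated with other scalings. DESeq2 factors move the log2 ratios by -0.13 with GSK-126 and -0.12 without, so these counts depend on the scaling. HOX genes had the lowest median without GSK-126, -0.65, and all 7 measured, in 6 sets of shared intervals, lay below 1 there. Of all genes, 36.9% did. Ligands of the WNT, BMP and growth factor families had 35 of 55 below 1 without GSK-126 and a median of -0.31, and antigen presentation genes 23 of 42 and -0.27.

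Zinc-finger genes and protocadherins had the opposite order. Without GSK-126 the zinc-finger genes had a median of 0.14, with 115 of 286 above 1 and 38 below, and on chromosome 19 a median of 0.30, with 88 of 159 above 1. The protocadherins had a median of 0.06, with 12 of 50 above 1 and 1 below. Neural and developmental transcription factors had a median of -0.39, the lowest after the HOX genes, and 74 of 107 below 1.

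Single genes show the same contrast. Near IGF2, fenretinide alone had a ratio of 0.388 (0.340 to 0.442) to vehicle, and the combination had 1.13 to GSK-126, so that the ratio of the ratios was 2.91 (2.21 to 3.83). Near NXPH4, a secreted neuronal glycoprotein, the ratio was 0.340 (0.262 to 0.439) without GSK-126 and 0.951 with it. Near HOXD13 it was 0.547 (0.439 to 0.680) without and 1.79 with, and near CYP26A1 0.494 (0.365 to 0.663) without and 0.788 with. WNT5A was alike in both, at 0.555 (0.451 to 0.681) without and 0.588 with, a ratio of ratios of 1.06 (0.737 to 1.53). Whether such differences exceed the variation between cultures cannot be told from 1 library per condition.

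**Figure D5:**
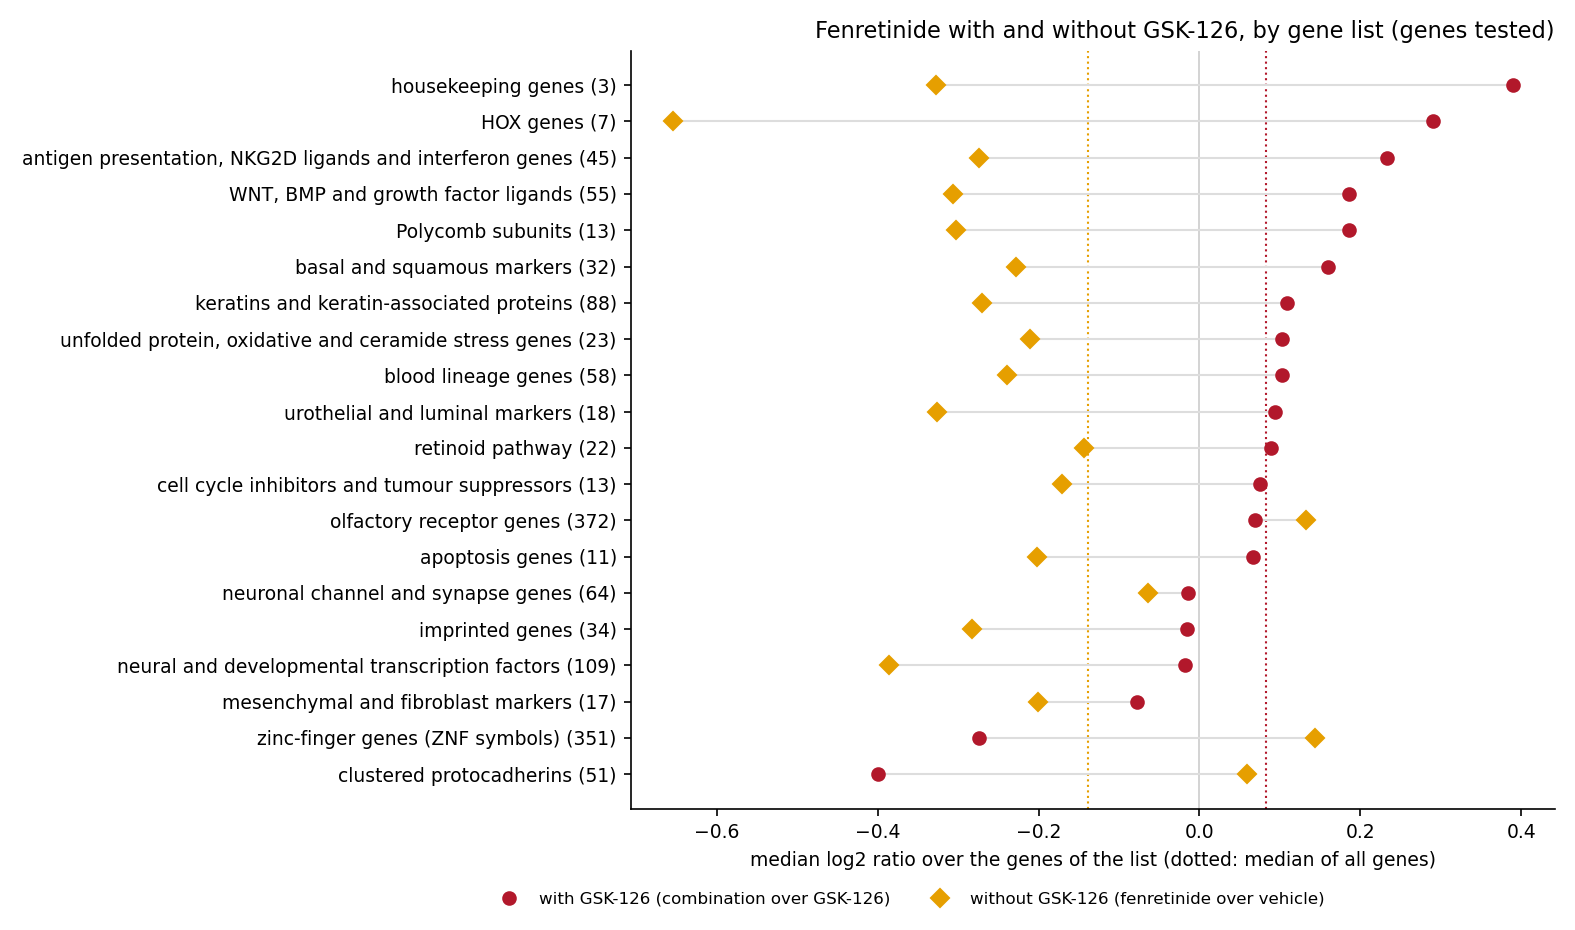
Median log2 ratio (x axis) over the genes of each list (y axis, number of genes tested with GSK-126 in brackets). Circles are the combination over GSK-126, diamonds fenretinide over vehicle for genes measured in both pairs, and dotted lines the medians of all genes, 0.08 and -0.14. Circles lie to the right of diamonds except for the olfactory receptor, zinc-finger and protocadherin lists.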

How the data were processed

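H3K27me3 ChIP-seq counts and peaks of 4 libraries were used. The authors deposited raw fragment counts over 273664 intervals, made with featureCounts 2.0.1 per the file headers. The authors also deposited broad peaks of each library with a score per peak, called with MACS2 2.1.0 and on GRCh38 per the submitters' processing notes. The aligner, duplicate handling and control are not given in the sources used here. Interval starts lay 1 base below the first base of their peaks, and 1 was added. Coordinates are 1-based.

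Gene values summed intervals of peaks of any of the 4 lists with the nearest start site within 10 kb, which gave 18981 genes, of which 15657 matched a RefSeq symbol. Genes that share an interval each received its fragments. Log2 ratios used a pseudocount of 0.5. The ratio of ratios used a 95% interval from the 4 counts on the log scale. edgeR 4.0.16 and DESeq2 1.42.0 served only for scaling factors. Alternatives were other scalings, count minimums, ratios, start-site distances, peak scores and overlaps, given at the end. The calling rule was tested on simulated data. Python 3.11.15 and R 4.3.3 were used.

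Members, the 20 lists and tests were chosen with earlier results of these data known. Named genes were the 12 largest rises and falls past 2-fold with at least 100 fragments, ranked by the counting bound nearest to 1, then those past 1.5-fold, up to 2 highest and 2 lowest members of each list, and 12 fixed genes.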

Additional observations from a re-analysis of the deposited data

Results flagged for a closer look

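Near 12 of the named genes the added fenretinide went with opposite ratios, above 1 with GSK-126 and below 1 without it, each with a counting interval that excludes 1, and the ratio of the ratios was at least 2 with its interval clear of 1. Another 9 named genes had opposite ratios by their counting intervals with a ratio of ratios under 2. With 1 library per condition the difference was not tested, and these genes were named for their ratio with GSK-126. The ratio with GSK-126 over the ratio without was 4.12 (1.98 to 8.54) for SYN1, 3.28 (1.85 to 5.81) for C17orf96, 3.25 (2.12 to 4.97) for HOXD13, 3.20 (2.01 to 5.10) for TSPAN33 and 3.19 (1.68 to 6.04) for IFNL3. It was 3.05 for LOC100130698, 3.02 for FGF8, 2.87 for MSX1 and for PWP1, 2.79 for LOC101927022, 2.72 for COL2A1 and 2.63 for LYZ.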

How the results depend on the processing

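No paired analysis was possible because each condition had 1 library, and none could be left out. Genes called higher and lower were 61 and 69. They were 19 and 106 with DESeq2 factors, 22 and 104 with TMM, 9 and 26 at 100 fragments, 313 and 225 with no minimum, 522 and 333 at a ratio of 1.5, and 31 and 41 within 2 kb. Higher calls were 9 in intervals with a GSK-126 peak, a filter on the denominator of the ratio, and lower calls 16 in intervals with a vehicle peak. By intervals clear of 1, genes were 2840 and 1497, and 1127 and 2843 (DESeq2), 1291 and 2616 (TMM) or 2139 and 1876 (background scaling). Intervals were 3785 and 2770. They were 555 and 561 at 50 fragments, 8000 and 6091 with no minimum, and 6679 and 5039 at 1.5. With 99% intervals they were 1323 and 1066, and by intervals clear of 1 they were 11036 and 9866. Other scalings gave 2211 and 4050 (DESeq2), 2357 and 3928 (TMM) or 3116 and 3273 (background scaling). Ratio-of-ratios calls went from 533 and 184 to 242 and 110 at 100 fragments and 2474 and 613 at 1.5. With background scaling they were 780 and 133. GSK-126 peaks overlapped went from 81.5% to 65.1% with 50% of the peak required and to 95.1% at a score of 20, and combination peaks from 63.8% to 45.6% and 90.1%. Combination peaks per GSK-126 peak went from 1.26 to 0.887 at that score. List medians that turned below 0 with DESeq2 and TMM factors included the olfactory receptor (-0.0590 and -0.0417), keratin (-0.0193 and -0.00204) and blood (-0.0258 and -0.00855) lists. Against the median of all genes, 9 lists were below in the main setting. Other scalings cannot change this count, and the other choices of intervals gave 8 to 10. The vehicle-peak and clear-of-1 alternatives were chosen after seeing the data. The housekeeping list gave no value within 2 kb.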
